A study of Bos taurus with 9 samples.

Results

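The genes described here load peptides onto major histocompatibility complex (MHC) class I molecules, and they were followed while bovine ear fibroblasts were converted chemically into adipocyte-like cells. They were chosen by name: B2M, BOLA, TAP1, TAP2, TAPBP, PSMB8, PSMB9, PSMB10, ERAP2 and NLRC5 were sought among the gene symbols of an expression table of 21512 genes. Of these 10 names, 8 were found as written, in 9 rows, and TAP2 was found as Tap2 in 2 further rows, which gave 11 rows for 9 names. All 11 rows passed the filter on low counts and were tested. B2M and TAP2 each had 2 rows, B2M (Gene ID 280729) with LOC783680 and TAP2 (Gene ID 281586) with LOC618733, where the LOC names are those RefSeq pairs with the same Gene IDs. No row carried the symbol BOLA. RefSeq pairs that name with Gene ID 515712, which the table calls Patr-A, so this row and 9 other class I heavy chain rows were described beside the 11 and not counted among them.

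A class I molecule is a heavy chain bound to beta-2-microglobulin, the product of B2M, with a short peptide between them, and nearly every nucleated cell shows such complexes to CD8+ T cells. The peptides are cut from cytosolic proteins by proteasomes and carried into the endoplasmic reticulum by the transporter TAP1/TAP2. There they are shortened by aminopeptidases such as ERAP2, while tapasin (TAPBP) holds the empty heavy chain near the transporter. PSMB8, PSMB9 and PSMB10 are the catalytic subunits that take the places of PSMB5, PSMB6 and PSMB7 in the immunoproteasome, and NLRC5 is a transactivator of class I genes. Interferon is the best known inducer of the whole set.

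RNA was sequenced from 3 groups of 3 samples. BEFs were fibroblasts grown out of skin from the ear margin and sampled on day 0, before any compound was added (the labels call them AnEFs-0d). CiADCs-3d and CiADCs-6d had been kept for 3 and 6 days in N2B27 medium with RepSox at 10 µM, an inhibitor of the TGF-beta type I receptor kinase, valproic acid (VPA) at 500 µg/mL, a histone deacetylase inhibitor, and TTNPB at 1 µM, a retinoic acid receptor agonist. All cells were wild type, and no transgene was used. Since there was no untreated culture of 3 or 6 days, effects of the compounds, the medium and the time in culture cannot be told apart. The number of animals and of separate inductions behind the 9 samples is not given in the sources used here, so p-values measure only the spread between these samples, which may be technical.

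The 9 libraries held between 18509244 and 24071580 counts. Of the 21512 genes, 3749 had no count in any library, and 14020 were tested. Fibroblast markers were read strongly in all groups, with summed levels of 63546 to 65988 CPM (counts scaled to library size) in BEFs, 25671 to 37329 CPM in CiADCs-3d and 17417 to 22974 CPM in CiADCs-6d. The adipocyte list summed to 47.5 to 52.9 CPM in BEFs, 118 to 144 CPM in CiADCs-3d and 107 to 146 CPM in CiADCs-6d, with no overlap between BEFs and either day. Of its 11 tested genes, CiADCs-3d had 5 higher and 2 lower than BEFs, and CiADCs-6d had 6 higher and 2 lower. Among all tested genes, 30.9% were higher and 29.1% lower on day 3, and 35.6% and 31.9% on day 6. PNPLA2, the lipase that starts triglyceride breakdown, was higher on both days (log2 fold change 2.14 and 2.43), as was LPL, which releases fatty acids from lipoproteins (2.37 and 1.24), whereas FABP4, a fatty acid carrier of adipocytes, was lower (-1.04 and -3.64), PLIN1 did not pass the test and LEP had too few counts to be tested. Over the 11 tested genes the log2 fold change ran from -2.59 to 2.37 on day 3 and from -4.32 to 2.43 on day 6. A gene of the list not named here thus fell further than FABP4 on each day. The day 3 call of FABP4 was lost without any single BEFs sample and without CiADCs-3d sample 2 or 3 (adjusted p 0.0562 to 0.0767). In bulk RNA, fewer cells of a type and less RNA per cell cannot be told apart.

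Of the 11 rows, 10 were upregulated in CiADCs-3d relative to BEFs, and NLRC5 was downregulated. In the edgeR fit a gene passed at an adjusted p under 0.05, which 30.9% of all tested genes did upwards and 29.1% downwards on day 3. With the added condition that the log2 fold change be 1 or more in size, 7 rows were higher and 1 was lower, where 18.2% and 9.94% of all genes met it. On day 6, 9 rows were higher than in BEFs against 35.6% of all genes, none was lower against 31.9%, and LOC618733 and NLRC5 did not pass. NLRC5 was nearest to a downward call, with an unadjusted p of 0.0372, and DESeq2 called it lower. Under the fold condition 7 rows were higher on day 6, against 21.9% of all genes, and none was lower, against 13.4%. In CPM, 10 rows lay wholly above BEFs on day 3 (35.1% of all tested genes) and 1 wholly below (35.4%), and on day 6 these numbers were 9 (37.7%) and 0 (35%). The median log2 fold change of the 11 rows was 1.22 on day 3 and 1.18 on day 6, while that of all tested genes was 0.01 and 0.03. Both comparisons use the same 3 BEFs samples.

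**Figure D1:**
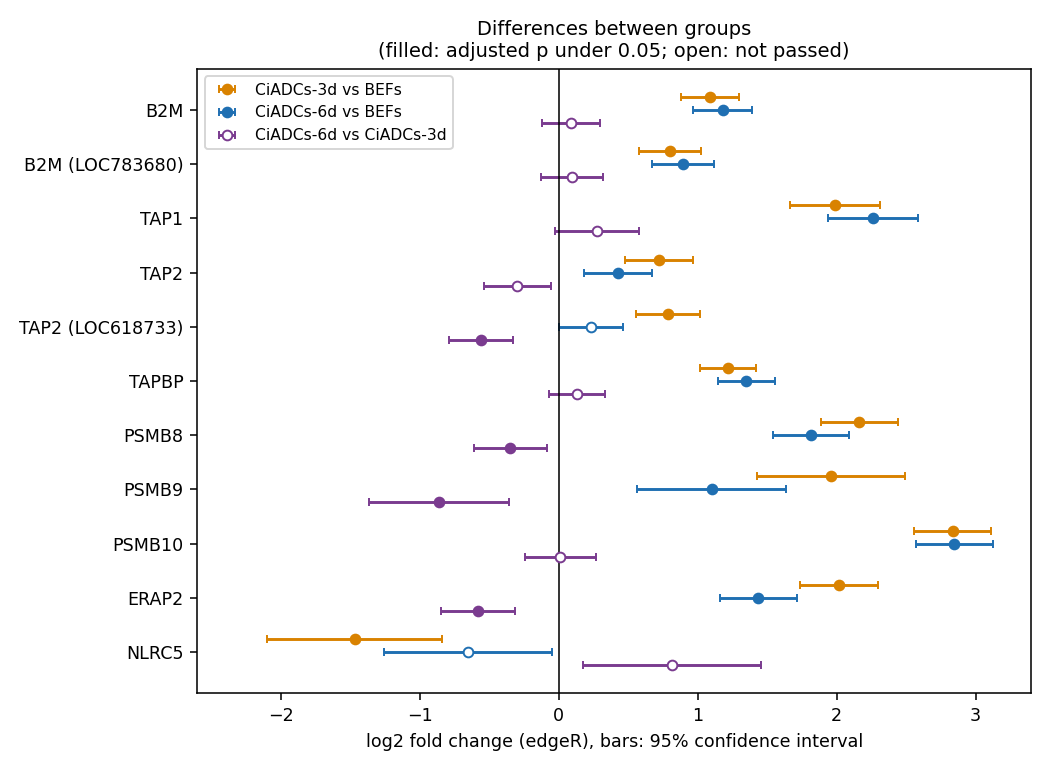
The log2 fold change of each of the 11 rows in the 3 comparisons, with 95% confidence intervals from the edgeR fit; filled points passed an adjusted p of 0.05. In CiADCs-3d against BEFs, 10 rows lie right of 0 and NLRC5 lies left of it, and the purple points for CiADCs-6d against CiADCs-3d lie near 0 or below it except for NLRC5 and TAP1.

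Beta-2-microglobulin, the constant light chain of every class I molecule, had by far the highest level of the 9 genes per unit of transcript length. Levels are given in FPKM, the deposited unit, which scales fragments to gene length and library depth. B2M read 353, 354 and 329 FPKM in BEFs, 737, 779 and 723 FPKM in CiADCs-3d and 758, 875 and 813 FPKM in CiADCs-6d. Its second row, LOC783680, read 448, 432 and 475 FPKM in BEFs, 789.7, 843 and 758 FPKM in CiADCs-3d and 837, 808 and 937 FPKM in CiADCs-6d. In both rows every CiADCs sample lay above every BEFs sample, and the 2 days overlapped. B2M was higher by a log2 fold change of 1.09 (SE 0.10, adjusted p = 1.10e-06) in CiADCs-3d and of 1.18 (SE 0.10, adjusted p = 4.33e-07) in CiADCs-6d. The log2 fold changes of LOC783680 were 0.80 and 0.90. RefSeq places the 2 genes side by side (assembly ARS-UCD2.0), and their counts were fractional in all 9 samples. Some of their reads had thus been divided among genes. Whether the division was between these 2 rows was not tested, and neither row is certain on its own. When their counts were added, a choice made after seeing the data, the log2 fold change was 0.96 on day 3 and 1.02 on day 6.

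The heavy chains, which carry the peptide groove, were mostly higher as well. Of 10 heavy chain rows 9 were tested, and 8 of them were higher than in BEFs on each day, with median log2 fold changes of 1.99 and 2.08. Over all tested genes, 30.9% were higher on day 3 and 35.6% on day 6, with medians of 0.01 and 0.03. The row of BOLA (Gene ID 515712) read 27.15, 26.6 and 29.1 FPKM in BEFs, 118, 137 and 105 FPKM in CiADCs-3d and 135, 132 and 158 FPKM in CiADCs-6d. Every CiADCs sample lay above the BEFs range, and the log2 fold change was 2.11 (SE 0.13, adjusted p = 3.60e-08) on day 3 and 2.33 (SE 0.13, adjusted p = 1.27e-08) on day 6. The most abundant heavy chain row, BoLA (Gene ID 533050), read 66.9, 60.2 and 65.55 FPKM in BEFs, 264, 278 and 284 FPKM in CiADCs-3d and 315, 256 and 312 FPKM in CiADCs-6d.

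Among the other heavy chain rows, BOLA-NC1, a non-classical class I gene, had log2 fold changes of 2.43 and 2.62 on days 3 and 6. JSP.1 read 2.38, 2.64 and 3.07 FPKM in BEFs, 18.6, 17.35 and 13.1 FPKM in CiADCs-3d and 26.7, 22.9 and 26.1 FPKM in CiADCs-6d, the groups lying apart in the order of time. Its log2 fold changes against BEFs were 2.56 and 3.18. LOC788634 had log2 fold changes of 2.69 and 3.34 at a level that stayed between 0.147 and 1.55 FPKM as group means. The rises were smaller in LOC507917 (1.15 and 1.43), LOC616942 (0.90 and 1.29) and the row of Gene ID 509006 (0.44 and 0.59). LOC512672 did not pass, with log2 fold changes of -0.03 and 0.10. MGC126945 was not tested, with no count in the 3 BEFs libraries, 2 to 5 counts in CiADCs-3d and 6 to 15 in CiADCs-6d. Several of these rows had fractional counts, and class I genes share long stretches of sequence, so the division between rows is uncertain. Their summed level was 187, 177 and 182 FPKM in BEFs, 607, 651 and 601 FPKM in CiADCs-3d and 716, 649 and 756 FPKM in CiADCs-6d.

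**Figure D2:**
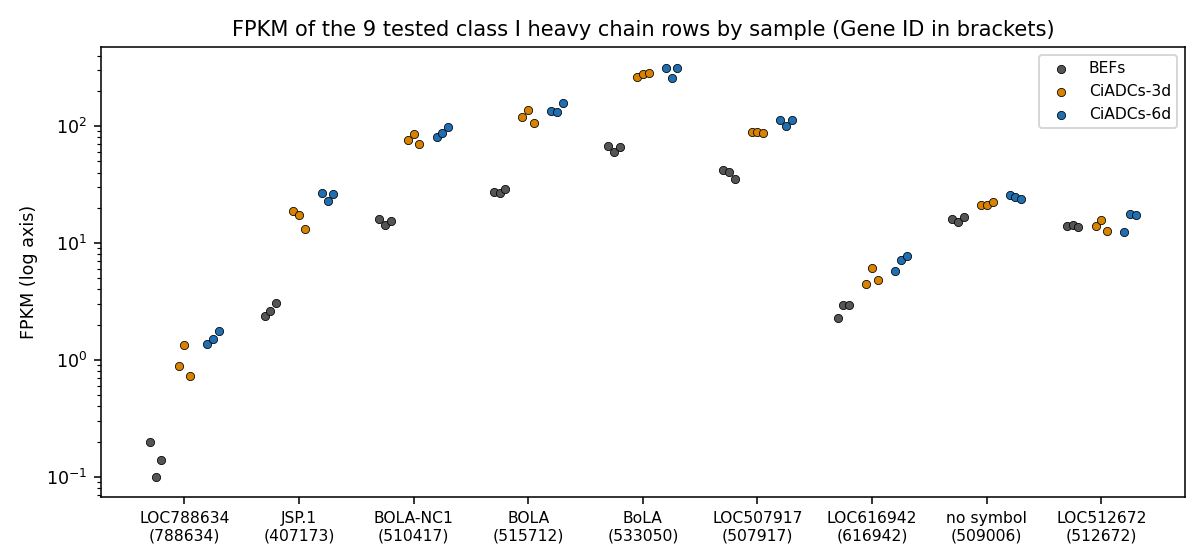
FPKM on a log axis in each sample for the 9 tested class I heavy chain rows, with the Gene ID in brackets. In 8 rows all CiADCs samples lie above the BEFs samples, and in LOC512672 the 3 groups overlap.

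Since light and heavy chain pair in equal number, the ratio of B2M to BOLA was taken per sample. It was 13.0, 13.3 and 11.3 in BEFs samples, 6.22, 5.69 and 6.86 in CiADCs-3d samples and 5.60, 6.63 and 5.16 in CiADCs-6d samples. The ratio was lower than in BEFs in all CiADCs samples, by 1.01 on the log2 scale on day 3 and by 1.12 on day 6, and the 2 days overlapped (exact two-sided permutation p = 0.4). Against BEFs the exact permutation p was 0.1, the smallest that 3 samples against 3 can give (0.115 after adjustment over 15 such tests). Taking the 2 rows of B2M over the 10 heavy chain rows instead, the ratio was 4.27 to 4.45 in BEFs samples, 2.46 to 2.52 in CiADCs-3d samples and 2.23 to 2.59 in CiADCs-6d samples.

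**Figure D3:**
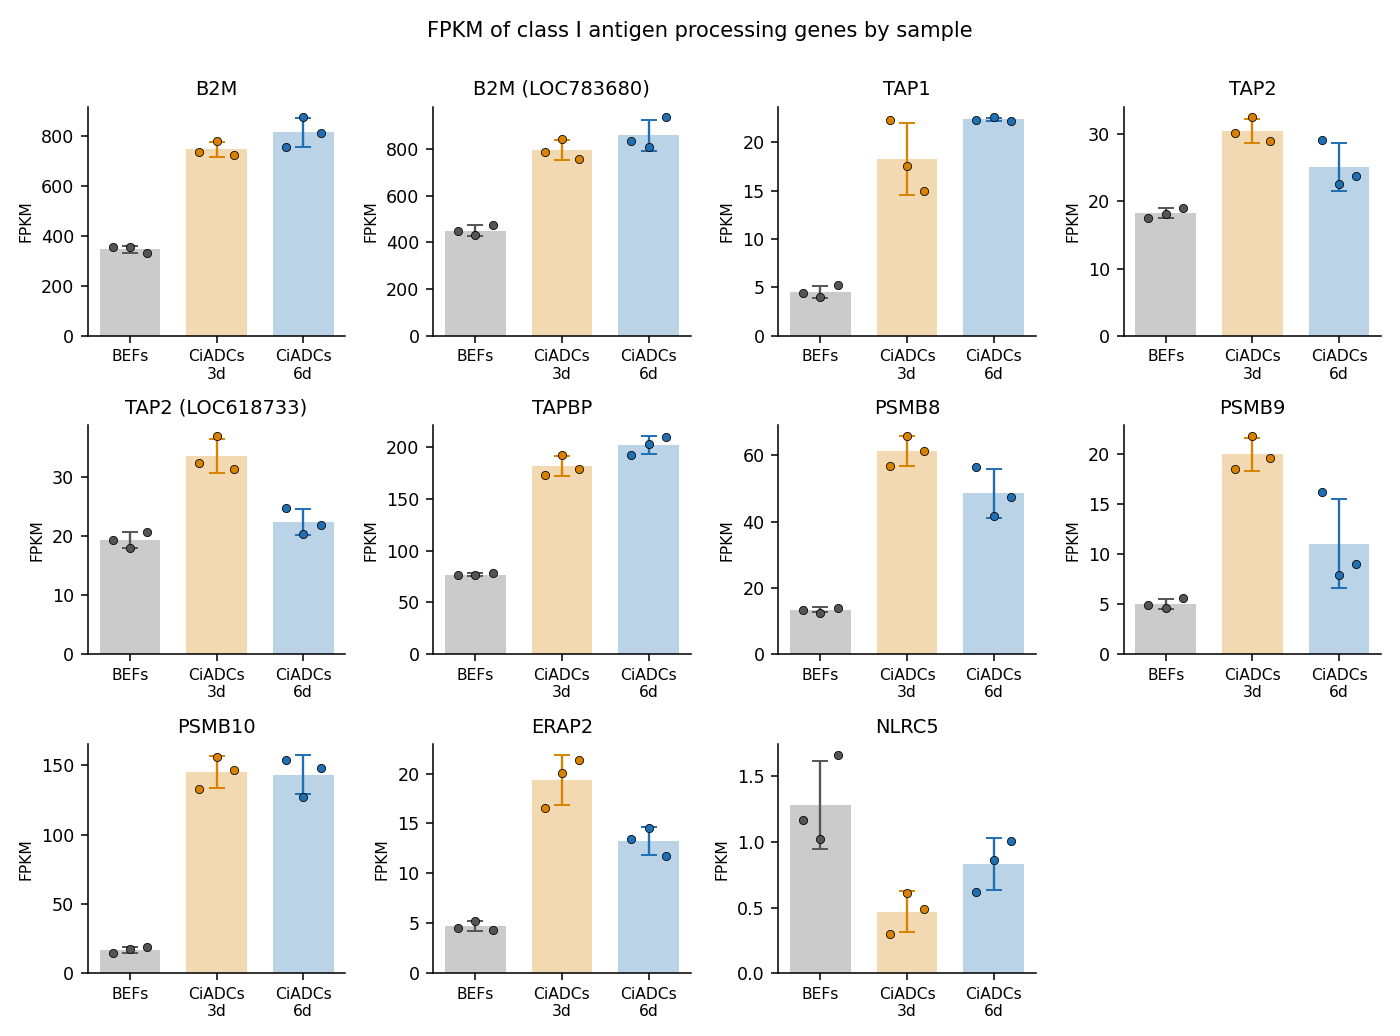
FPKM of the 11 rows in each sample, with bars for the group mean and error bars for the SD of 3 samples; each panel has its own axis from 0. NLRC5 is the only panel in which BEFs stand highest, and PSMB9, PSMB8, ERAP2 and LOC618733 stand lower on day 6 than on day 3 without overlap, while TAP2 has a lower mean on day 6 with 1 sample inside the day 3 range.

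The 3 immunoproteasome subunits were higher on both days, and of the 11 rows PSMB10 had the largest log2 fold change on each. PSMB10 read 14.7, 17.5 and 18.9 FPKM in BEFs, 133, 156 and 147 FPKM in CiADCs-3d and 154, 127 and 148 FPKM in CiADCs-6d. Both days lay far above BEFs and overlapped each other. The log2 fold change was 2.84 (SE 0.13, adjusted p = 3.01e-09) on day 3 and 2.85 (SE 0.13, adjusted p = 2.40e-09) on day 6, a 7.14-fold and a 7.20-fold difference. It had fractional counts in all 9 samples. PSMB8 read 13.5, 12.6 and 14.1 FPKM in BEFs, 56.8, 65.6 and 61.3 FPKM in CiADCs-3d and 56.35, 41.7 and 47.5 FPKM in CiADCs-6d. The 3 groups of PSMB8 did not overlap, and day 6 lay between BEFs and day 3. Its log2 fold changes against BEFs were 2.16 (SE 0.13, adjusted p = 3.14e-08) on day 3 and 1.82 (SE 0.13, adjusted p = 1.10e-07) on day 6. PSMB9 read 4.90, 4.60 and 5.65 FPKM in BEFs, 18.5, 21.8 and 19.7 FPKM in CiADCs-3d and 16.2, 7.99 and 9.07 FPKM in CiADCs-6d. On day 6 sample 1 stood well above the other two, and this group had a mean of 11.1 ± 4.46 FPKM (SD, n = 3). Its log2 fold change was 1.96 (SE 0.24, adjusted p = 2.22e-05) on day 3 and 1.10 (SE 0.25, adjusted p = 0.00166) on day 6.

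The constitutive subunits that these 3 replace moved the other way. PSMB5 averaged 85.85 ± 3.59 FPKM in BEFs, 55.2 ± 2.45 FPKM in CiADCs-3d and 50.2 ± 4.14 FPKM in CiADCs-6d (SD, n = 3 each). PSMB5 was lower by 0.66 on the log2 scale on day 3 and by 0.81 on day 6, and PSMB6 by 0.61 and 0.79. PSMB7 was the least changed, with log2 fold changes of -0.26 (adjusted p = 0.0335) and -0.24 (adjusted p = 0.0415). The call of PSMB7 on day 3 was lost without any single BEFs or CiADCs-3d sample (adjusted p 0.0556 to 0.107), and that on day 6 without any single BEFs sample, without CiADCs-3d sample 3 or without CiADCs-6d sample 1 (0.0520 to 0.111).

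Set against its constitutive partner in FPKM, each inducible subunit took a larger part of the pair in CiADCs than in BEFs. The ratio of PSMB8 to PSMB5 was 0.150, 0.151 and 0.168 in BEFs samples, 1.08, 1.14 and 1.11 in CiADCs-3d samples and 1.03, 0.901 and 0.954 in CiADCs-6d samples. The ratio of PSMB10 to PSMB7 was 0.142, 0.175 and 0.189 in BEFs samples, 1.52, 1.80 and 1.76 in CiADCs-3d samples and 1.96, 1.37 and 1.60 in CiADCs-6d samples. PSMB9 remained the minor partner throughout, its ratio to PSMB6 being 0.0522, 0.0510 and 0.0629 in BEFs samples, 0.318, 0.347 and 0.328 in CiADCs-3d samples and 0.270, 0.164 and 0.170 in CiADCs-6d samples. In terms of shares, PSMB8 made up 13.5% of its pair in BEFs samples, 52.6% in CiADCs-3d samples and 49.0% in CiADCs-6d samples, as group means. PSMB10 made up 14.4%, 62.8% and 61.9% of its pair in these groups, and PSMB9 made up 5.24%, 24.9% and 16.6%. All 3 ratios lay above the BEFs range in every CiADCs sample, with log2 differences of 2.83, 2.58 and 3.33 on day 3 and 2.62, 1.83 and 3.28 on day 6 for PSMB8, PSMB9 and PSMB10. The exact two-sided permutation p was 0.1 for each of the 6 comparisons, again the smallest possible with 3 samples a group. These are ratios of RNA and not of assembled subunits.

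**Figure D4:**
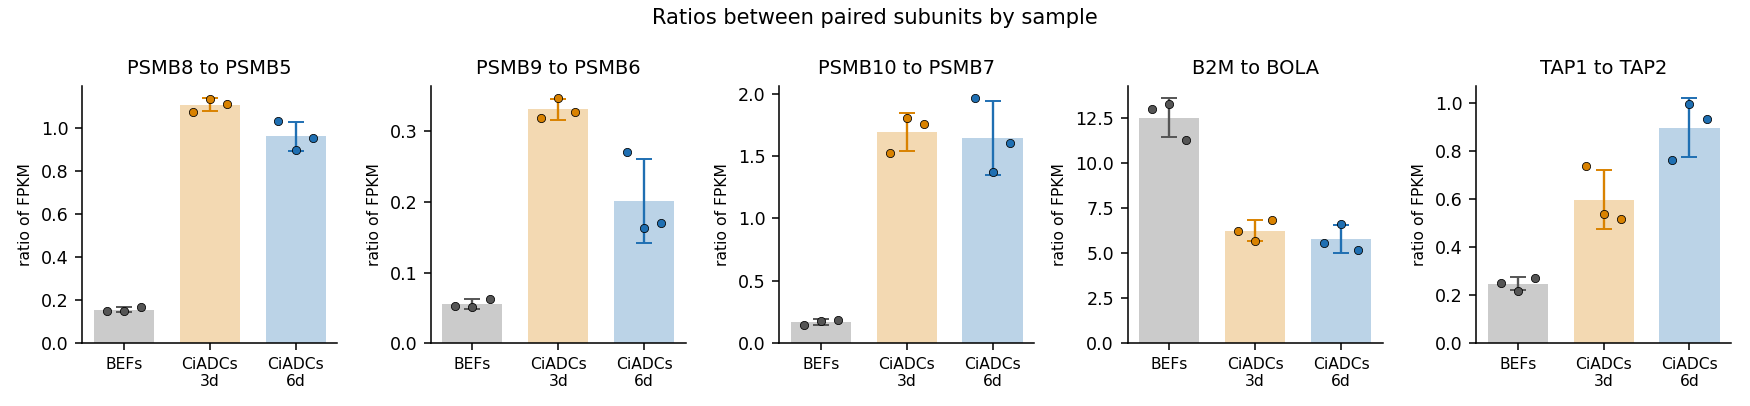
Ratios of FPKM between paired subunits in each sample, with bars for the group mean and error bars for the SD of 3 samples. The immunoproteasome ratios and TAP1 to TAP2 are higher in every CiADCs sample than in BEFs, and B2M to BOLA is lower.

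Of the 11 core subunits that both forms of the proteasome share, 3 were higher and 3 lower on day 3, where 30.9% and 29.1% of all tested genes were. On day 6, 2 were higher and 4 lower, where 35.6% and 31.9% of all tested genes were. These shares are near those of all genes, and the median log2 fold changes were -0.01 and 0.03. PSMA6 was the core subunit with the largest rise (0.64 and 0.50), and PSMB3 had the largest decrease (-0.53 and -0.71). Of the 8 constitutive catalytic subunits and assembly chaperones, 7 were lower on day 3 and 5 on day 6, and the rest did not pass. The assembly chaperones PSMG1 (-0.67 and -0.94) and PSMG2 (-0.74 and -0.84) were among them. The proteasome activator PA28, which opens the core and favours the release of class I ligands, was higher on both days. PSME1 averaged 77.9 FPKM in BEFs, 162 FPKM in CiADCs-3d and 121 FPKM in CiADCs-6d (log2 fold changes 1.03 and 0.60), and PSME2 averaged 51.5, 112 and 91.9 FPKM in the same groups (1.10 and 0.80). PSME3, which forms the nuclear PA28 ring, was lower on both days (-0.58 and -0.70).

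The peptide transporter is a dimer of TAP1 and TAP2, and its subunits differed in response. TAP1 read 4.41, 3.98 and 5.20 FPKM in BEFs, 22.3, 17.6 and 14.95 FPKM in CiADCs-3d and 22.3, 22.55 and 22.2 FPKM in CiADCs-6d. It lay above BEFs in all CiADCs samples, and the day 3 range reached the values of day 6. Its log2 fold change was 1.99 (SE 0.15, adjusted p = 2.50e-07) on day 3 and 2.26 (SE 0.15, adjusted p = 6.47e-08) on day 6. TAP2 (Gene ID 281586) read 17.5, 18.2 and 19.0 FPKM in BEFs, 30.2, 32.5 and 29.0 FPKM in CiADCs-3d and 29.2, 22.6 and 23.75 FPKM in CiADCs-6d. Its log2 fold changes were 0.72 (SE 0.11, adjusted p = 0.000132) and 0.43 (SE 0.11, adjusted p = 0.00455). LOC618733, the other TAP2 row, read 19.4, 18.1 and 20.8 FPKM in BEFs, 32.35, 36.9 and 31.4 FPKM in CiADCs-3d and 24.7, 20.35 and 22.0 FPKM in CiADCs-6d. On day 6 this row overlapped BEFs and missed the test (log2 fold change 0.23, SE 0.11, adjusted p = 0.0676), which it passed without CiADCs-6d sample 2 (0.29, adjusted p = 0.0381). With the 2 rows added, the log2 fold change was 0.78 on day 3 and 0.32 (adjusted p = 0.0222) on day 6. LOC618733 took 47.5% to 53.7% of the counts of the pair, and both rows had fractional counts in all 9 samples.

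Per unit length, TAP1 was the scarcer subunit in BEFs and its ratio to the TAP2 row of Gene ID 281586 was higher on both days. The ratio of TAP1 to TAP2 was 0.252, 0.219 and 0.274 in BEFs samples, 0.739, 0.541 and 0.516 in CiADCs-3d samples and 0.763, 1.00 and 0.936 in CiADCs-6d samples. The 3 groups did not overlap, the log2 differences against BEFs were 1.26 and 1.86, and the exact permutation p was 0.1 in each comparison. Against the 2 TAP2 rows added, the ratio was lower. It was 0.120, 0.110 and 0.131 in BEFs samples, 0.357, 0.253 and 0.248 in CiADCs-3d samples and 0.413, 0.526 and 0.486 in CiADCs-6d samples. The groups again did not overlap. In the RefSeq order of protein-coding genes, TAP2, LOC618733, PSMB8, TAP1 and PSMB9 follow one another with none between them, so the neighbours included the 2 steep responders PSMB8 and TAP1 and the 2 shallow rows of TAP2. Whether reads over gene ends were shared among these neighbours was not tested; TAP1 and PSMB9 had fractional counts in 3 samples each and PSMB8 in none.

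Tapasin, which bridges the transporter and the empty heavy chain, was higher on both days. TAPBP read 76.05, 76.4 and 78.2 FPKM in BEFs, 173, 192 and 179 FPKM in CiADCs-3d and 192, 202 and 209 FPKM in CiADCs-6d. The log2 fold change was 1.22 (SE 0.09, adjusted p = 3.27e-07) on day 3 and 1.35 (SE 0.09, adjusted p = 1.05e-07) on day 6. Its relative TAPBPL (TAPBPR), a peptide editor that works outside the loading complex, was higher by 1.61 and 1.86 on the log2 scale. Calreticulin and calnexin, general chaperones of the loading complex, went down instead. Calreticulin, CALR, averaged 618 FPKM in BEFs, 394 FPKM in CiADCs-3d and 224 FPKM in CiADCs-6d (log2 fold changes -0.67 and -1.50), and calnexin, CANX, had log2 fold changes of -0.61 and -0.87. The disulfide isomerase PDIA3 did not pass on day 3 (0.11, adjusted p = 0.337) and was slightly lower on day 6 (-0.25, adjusted p = 0.0345), a call that was lost without BEFs sample 1, BEFs sample 2 or CiADCs-6d sample 3 (adjusted p 0.0845 to 0.111).

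ERAP2, which trims peptide precursors in the endoplasmic reticulum, read 4.50, 5.28 and 4.35 FPKM in BEFs, 16.5, 20.05 and 21.4 FPKM in CiADCs-3d and 13.4, 14.5 and 11.75 FPKM in CiADCs-6d. The 3 groups did not overlap, with day 6 between the others. The log2 fold change was 2.02 (SE 0.13, adjusted p = 6.25e-08) on day 3 and 1.44 (SE 0.13, adjusted p = 8.99e-07) on day 6. The related ERAP1 averaged 12.9 FPKM in BEFs, 34.1 FPKM in CiADCs-3d and 28.6 FPKM in CiADCs-6d, with log2 fold changes of 1.38 and 1.11. The cytosolic leucine aminopeptidase LAP3 (1.78 and 1.56) and the puromycin-sensitive aminopeptidase NPEPPS (1.18 and 1.01) were higher as well. Thimet oligopeptidase, THOP1, which destroys peptides in the cytosol, was lower (-1.03 and -1.29). Over the 14 loading and trimming partners, 5 were higher and 8 lower on day 3, and 5 were higher and 7 lower on day 6, with medians of -0.33 and -0.26. The shares of all tested genes higher and lower were 30.9% and 29.1% on day 3 and 35.6% and 31.9% on day 6.

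NLRC5 stood apart from the other rows both in level and in direction. It read 1.17, 1.02 and 1.66 FPKM in BEFs, 0.30, 0.61 and 0.49 FPKM in CiADCs-3d and 0.62, 0.86 and 1.01 FPKM in CiADCs-6d, the lowest levels per unit length of the 11 rows. These values rest on 173, 168 and 262 counts in BEFs, 38, 86 and 80 counts in CiADCs-3d and 90, 128 and 130 counts in CiADCs-6d. All CiADCs-3d samples lay below BEFs, and the log2 fold change was -1.47 (SE 0.29, 95% confidence interval -2.10 to -0.84, adjusted p = 0.000874), lower in all 21 alternatives run. On day 6 the samples lay between the other groups in FPKM, with the highest CiADCs-6d sample next to the lowest BEFs sample, and in CPM those 2 groups overlapped. The log2 fold change on day 6 was -0.65 (SE 0.28, adjusted p = 0.0546). This call sat on the threshold: NLRC5 was lower at an adjusted p of 0.0375 without BEFs sample 2, 0.0228 without CiADCs-3d sample 1, 0.0437 without CiADCs-3d sample 2 and 0.0373 without CiADCs-6d sample 3, and over all alternatives the adjusted p ran between 0.0228 and 0.236. Across the 9 samples the log2 level of NLRC5 had Pearson's r of -0.83 to -0.58 with the other 10 rows, a description over samples that fall into 3 groups.

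Between CiADCs-6d and CiADCs-3d the 11 rows split. No row was higher on day 6, against 14.4% of all tested genes, and 4 were lower, against 13.6%, namely LOC618733, PSMB8, PSMB9 and ERAP2. None met the fold condition, which 4.09% of all genes did upwards and 3.22% downwards. In CPM, 5 rows lay wholly below day 3 on day 6, against 18% of all genes, and none wholly above, against 19.1%. LOC618733 was lower by 0.55 on the log2 scale (SE 0.11, adjusted p = 0.00312) and ERAP2 by 0.58 (SE 0.12, adjusted p = 0.00537), and both passed in every alternative run for them. PSMB9 was lower by 0.86 (SE 0.23, adjusted p = 0.0173), which was lost without CiADCs-3d sample 2 (adjusted p = 0.0578), without CiADCs-6d sample 2 (0.0532) and without CiADCs-6d sample 3 (0.0782). PSMB8 was lower by 0.35 (SE 0.12, adjusted p = 0.0484), which was lost without any single BEFs sample and without sample 2 or 3 of either CiADCs group (adjusted p 0.0651 to 0.151). The other rows did not pass: B2M (0.09, adjusted p = 0.510), LOC783680 (0.09, adjusted p = 0.515), TAPBP (0.13, adjusted p = 0.299) and PSMB10 (0.01, adjusted p = 0.942) had the log2 fold changes nearest to 0. NLRC5 had one of 0.82 (SE 0.29, adjusted p = 0.0567), which passed without CiADCs-3d sample 2 (1.04, adjusted p = 0.0451) or CiADCs-6d sample 1 (0.95, adjusted p = 0.0246). TAP2 had one of -0.30 (SE 0.11, adjusted p = 0.0649), which passed without CiADCs-3d sample 1 (adjusted p = 0.0483), without CiADCs-6d sample 1 (0.00423) or with its 2 rows added (-0.46, adjusted p = 0.0100). TAP1 had one of 0.28 (SE 0.14, adjusted p = 0.155) and passed without CiADCs-3d sample 1 (0.39, adjusted p = 0.0331). At an unadjusted p under 0.05 NLRC5 alone was higher, and DESeq2 called 1 row higher, NLRC5 too.

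Of the ratios, TAP1 to TAP2 was higher in every CiADCs-6d sample than in any CiADCs-3d sample, by 0.60 on the log2 scale, and PSMB8 to PSMB5 (-0.21) and PSMB9 to PSMB6 (-0.76) were lower, each with the smallest exact permutation p of 0.1. PSMB10 to PSMB7 differed by less than the spread between samples (-0.05, exact permutation p = 0.8). Of the heavy chains JSP.1 alone passed, with a log2 fold change of 0.61 (SE 0.15, adjusted p = 0.00958) that was lost without CiADCs-3d sample 3 (adjusted p = 0.0508) or CiADCs-6d sample 3 (0.0573).

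The transcription factors that act at class I promoters did not share one direction. Of 15 tested, 6 were higher and 3 lower on day 3, and 7 were higher and 2 lower on day 6. Among all tested genes, 30.9% were higher and 29.1% lower on day 3, and 35.6% and 31.9% on day 6. IRF1, which binds the interferon response element of class I genes, read 12.8, 12.3 and 13.2 FPKM in BEFs, 125, 100.4 and 96.0 FPKM in CiADCs-3d and 98.5, 130.0 and 135 FPKM in CiADCs-6d. Its log2 fold changes of 3.05 (SE 0.15) and 3.22 (SE 0.15) exceeded that of every one of the 11 rows. IRF1 was above BEFs in all CiADCs samples and overlapped between the days. NFKB1 was higher (0.88 and 1.07). EZH2, the histone methyltransferase that can silence class I genes, was lower (-1.89 and -1.28). RFX5, which binds the X box with NLRC5, did not pass on either day (0.30, adjusted p = 0.0527, and 0.15, adjusted p = 0.284), but passed on day 3 without CiADCs-3d sample 1 (adjusted p = 0.00556), CiADCs-6d sample 1 (0.0337) or CiADCs-6d sample 2 (0.0418).

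CIITA, the class II counterpart of NLRC5, went the other way from it. CIITA had 1, 4 and 5 counts in BEFs, 34, 171 and 166 counts in CiADCs-3d and 39, 81 and 37 counts in CiADCs-6d. From the pooled counts, scaled to library size, the ratio to BEFs was 40.6 on day 3 (95% interval from counting error alone 21.8 to 85.3) and 17.7 on day 6 (9.35 to 37.5). CD74, the invariant chain of class II molecules, had 1, 3 and 2 counts in BEFs, 637, 3300 and 1974 counts in CiADCs-3d and 2503, 1218 and 1170 counts in CiADCs-6d. Its ratio was 1077.4 (495 to 2937) on day 3 and 917 (421 to 2499) on day 6. Of the 6 class II genes tested out of 14 rows, 5 were higher than in BEFs on both days, BOLA-DMB among them (2.45 and 2.22). The share higher over all tested genes was 30.9% on day 3 and 35.6% on day 6. The spread within the CiADCs groups was far wider for CIITA and CD74 than for the class I rows, CiADCs-3d sample 1 being lowest of its group in both.

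**Figure D5:**
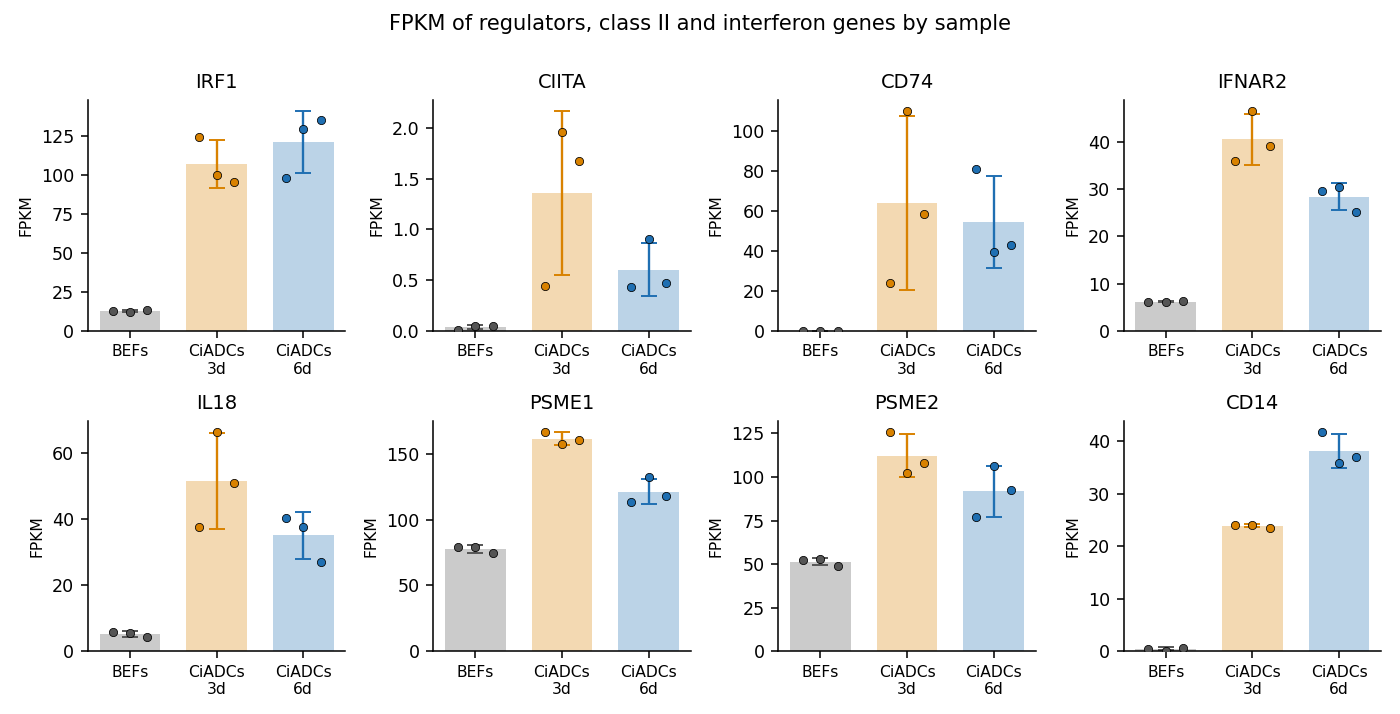
FPKM of IRF1, CIITA, CD74, IFNAR2, IL18, PSME1, PSME2 and CD14 in each sample, with bars for the group mean and error bars for the SD of 3 samples; each panel has its own axis from 0. All 8 genes are higher in every CiADCs sample than in BEFs, with wide spreads in CIITA and CD74.

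Transcripts of the interferons IFNG and IFNB1 were not detectable at this depth. Both had 0 counts in all 9 libraries, where 3 counts, the limit that a count of 0 allows, correspond to 0.125 to 0.162 CPM. Of the 10 ligand genes on the list only the cytokine IL18 had enough counts to be tested, and it was higher on both days (3.29 and 2.71). Receptors and signal carriers were partly higher, 7 of 13 on each day, with 2 lower on day 3 and 5 on day 6. Of all tested genes, 30.9% and 35.6% were higher on the 2 days, and 29.1% and 31.9% were lower. IFNAR2 averaged 6.13 FPKM in BEFs, 40.5 FPKM in CiADCs-3d and 28.3 FPKM in CiADCs-6d (2.70 and 2.17), IFNAR1 had log2 fold changes of 1.54 and 1.08, and IFNGR2 of 1.04 and 0.91. SOCS1, which dampens the signal, was higher (1.42 and 2.28), and IRF9, the DNA-binding part of the type I interferon complex, was lower (-1.07 and -1.09).

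Interferon-stimulated genes outside antigen presentation were less uniform than the class I rows. Of 36 tested, 19 were higher and 2 lower on day 3, with a median log2 fold change of 0.72, and 17 were higher and 9 lower on day 6, with a median of 0.41. For comparison, upward calls against BEFs made up 30.9% of all tested genes on day 3 and 35.6% on day 6. Downward calls made up 29.1% and 31.9%. Between the days 10 of the 36 were lower on day 6, against 13.6% of all tested genes, and the other 26 did not pass (median -0.37). ISG15, a ubiquitin-like modifier, was higher (1.77 and 2.19), as was CMPK2, a mitochondrial nucleotide kinase (2.09 and 2.24). IFIT3 (-0.46, adjusted p = 0.0747, on day 3) and OAS1Y (-0.82, adjusted p = 0.140, on day 3) were lower on day 6 (-1.11 and -1.79). IFIT3 was also lower on day 3 without CiADCs-3d sample 2 (adjusted p = 0.0182), and OAS1Y without CiADCs-6d sample 1 (0.0262).

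Of 9 genes that remove class I molecules, 2 were higher and 4 lower on each day, where 30.9% of all tested genes were higher and 29.1% lower on day 3, and 35.6% and 31.9% on day 6. The intramembrane protease SPPL2A was higher (0.84 and 1.06), and VCP, the ATPase that pulls proteins out of the endoplasmic reticulum, was lower (-0.85 and -0.83).

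Markers of other cells moved beside these genes, and their part in the class I values was not tested. The summed leukocyte list was 6.09 to 9.64 CPM in BEFs, 50.3 to 53.6 CPM in CiADCs-3d and 80.9 to 99.3 CPM in CiADCs-6d. Of its 15 genes 5 were tested, 4 of them higher and 1 lower on each day, and PTPRC, CD2, MS4A1, NKG7 and TYROBP, which define leukocytes or their main lineages, were at 0 in all 9 libraries. The sum was carried by monocyte genes, with CD14 at 0.49, 0.13 and 0.70 FPKM in BEFs, 24.1, 24.1 and 23.6 FPKM in CiADCs-3d and 41.8, 35.8 and 36.9 FPKM in CiADCs-6d. LAPTM5, another leukocyte gene, was lower (-2.72 and -3.30). The summed endothelial list was 11.0 to 16.0 CPM in BEFs, 310.0 to 458 CPM in CiADCs-3d and 196 to 319 CPM in CiADCs-6d, with VWF higher by 5.57 and 4.98 on the log2 scale. Of its 4 tested genes, 2 were higher on day 3 and 2 did not pass, and on day 6, 3 were higher and 1 lower. Of all tested genes, 30.9% were higher and 29.1% lower on day 3, and 35.6% and 31.9% on day 6. Of 6 keratinocyte and epithelial genes tested, 3 were higher and 3 lower on day 3, and 3 were higher and 1 lower on day 6. TP63 had log2 fold changes of 3.02 and 2.79 and desmoplakin, DSP, of -0.52 and -0.66, the day 3 call of DSP being lost without BEFs sample 2 or 3 or CiADCs-3d sample 2 or 3 (adjusted p 0.0855 to 0.135).

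Among all tested genes, those close to B2M over the 9 samples included ARL14EPL, CALCOCO2, SLC22A15 and SLC4A4, with Pearson's r of log2 CPM between 0.997 and 0.998. Those closest to NLRC5 were ITPK1, PDXDC1, TSC1, EPC1 and CDCP1, with r between 0.965 and 0.97. Within the 11 rows the pair with the highest r was B2M with TAPBP (0.993). These values describe 9 samples in 3 groups and carry no test.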

How the data were processed

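RNA-seq libraries of 3 BEFs, 3 CiADCs-3d and 3 CiADCs-6d samples were compared. Per the labels, fastp 0.18.0, HISAT2, StringTie 1.3.1 and RSEM were used, with no roles stated, while the study's methods name TopHat and HTSeq; the genome build is not given in the sources used here. The authors assigned reads to genes and deposited the result as estimated counts, of which 5.48% were not whole, and as FPKM computed by the authors. The plan had been made for whole counts, so these were rounded. Genes with too few counts were removed (filterByExpr of edgeR 4.0.16, minimum count 10, minimum total 15), which left 14020 and removed 7492. Groups were compared in 1 quasi-likelihood fit over 9 samples with TMM scaling and no block, in R 4.3.3, with Benjamini-Hochberg adjustment over all genes tested. SE was taken as the size of the log2 fold change over the root of the F statistic. CPM are counts scaled to the library size over the tested genes, adjusted by TMM. The limit given for a count of 0 and the ratios from pooled counts used total counts instead. Ratios of FPKM were compared by exact permutation. The intervals of ratios from pooled counts were exact binomial intervals (scipy 1.17.1). Alternatives used DESeq2 1.42.0, limma 3.58.1 on log2(FPKM + 1) and log2(FPKM + 0.1), other scalings and filters, and omission of each sample. The scripts were tested on simulated data.

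Named companions were, per list, up to 2 genes with the highest and 2 with the lowest log2 fold change in CiADCs-6d against BEFs, among those passing the test whose higher group reached 5 CPM, besides IRF1, ERAP1, PSME1, PSME2, TAPBPL and the constitutive subunits. RFX5, CIITA, CD74, IFNG, IFNB1, the leukocyte genes at 0, PLIN1 and LEP were named after their values were seen where this rule did not take them. CANX, PDIA3, NPEPPS, NFKB1, IFNAR1, IFNGR2, BOLA-DRA and BOLA-DRB3 were also named outside this rule. The members and lists were chosen with earlier results of these data known. The same replicate numbers gave correlations of deviations from group means between -0.353 and 0.123, with 1 of 9 over 0.1, so samples were not treated as paired. Symbols came from the table and from RefSeq (assembly ARS-UCD2.0), which matched 20582 of 21039 Gene IDs. No promoter or protein sequence was used here, and a few genes that these rules took are not reported here.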

Additional observations from a re-analysis of the deposited data

Results flagged for a closer look

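Among the genes named, 24 differed between CiADCs-6d and CiADCs-3d by the edgeR test of that difference itself (adjusted p under 0.05). They so had a different change from BEFs on the 2 days. By the same test 14.4% of all tested genes were higher and 13.6% lower on day 6. The genes looked through were not counted, so the 24 are not set against these shares. Of the class I rows these were PSMB9 (log2 fold change -0.86), ERAP2 (-0.58), LOC618733 (-0.55) and PSMB8 (-0.35), all lower on day 6. The call held in 21 of 21 alternatives for ERAP2, 20 of 20 for LOC618733, 18 of 21 for PSMB9 and 9 of 21 for PSMB8. The heavy chain JSP.1 was higher (0.61, in 18 of 20). Of the genes around them, CALR (-0.84), PSME1 (-0.43) and the core subunit PSMA4 (-0.48) were lower in every alternative, as were IFNAR1 (-0.46), IFNAR2 (-0.54) and HFE (-1.04), the class I-like chain of iron control. ERAP1 (-0.28) held in 11 of 21, PDIA3 (-0.36) in 19, the kinase JAK1 (-0.29) in 17, IFIT3 (-0.65) in 9 and BOLA2B (-0.53), which is not an MHC gene, in 19, and SOCS1 was higher (0.85) in 15 of 21.

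Markers of other cells were flagged in the same way. The monocyte scavenger receptor CD163 was higher on day 6 (1.92), and its ratio to BEFs from pooled counts was 60.4 on day 3 and 232 on day 6. VWF (-0.59, in 11 of 21 alternatives) and the epithelial cadherin CDH1 (-0.58) were lower. The fibroblast genes VIM (-0.82) and FAP (-1.70) and the adipocyte genes FABP4 (-2.61) and LPL (-1.13) were lower in every alternative. LPL was still above BEFs on day 6 (1.24), and FABP4 was below BEFs (-3.64).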

How the results depend on the processing

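Over 687 alternative values of the 33 member fold changes, 15 lost the call and 27 gained it. No called value changed sign. Between the 2 days the sign turned for PSMB10 (0.01, lowest -0.13) and LOC783680 (0.09, lowest -0.02), neither of which was called. On day 3 against BEFs, leaving out each sample in turn gave 10 to 10 rows higher and 1 to 1 lower, and on day 6 it gave 9 to 10 higher. The number lower on day 6 against BEFs was 0 and became 1 with DESeq2, upper-quartile scaling, no filter on low counts, only the 2 groups, the replicate block or the rows of copies summed, and 0 to 1 when each sample was left out. The gene was NLRC5 each time. Between CiADCs-6d and CiADCs-3d the number higher was 0 and became 1 with DESeq2, total-count scaling, no filter or the replicate block, 2 (NLRC5 and TAP1) without both CiADCs samples numbered 1, an alternative added after seeing the data, and 0 to 1 when each sample was left out. The number lower was 4 there, 0 under the fold condition, and 2 to 5 when each sample was left out, with 2 without CiADCs-3d sample 2, CiADCs-6d sample 2 or CiADCs-6d sample 3. The cause was not tested. In both CiADCs groups sample 1 differed most from the others over all genes. The chi-square per gene between 2 samples was 46.1 and 34.0 for pairs with sample 1 on day 3, and 15.1 for samples 2 and 3. On day 6 these values were 50.6, 35.7 and 13.5, and in BEFs the pairs had 2.46 to 9.30.

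Samples of the same number were not shown to be paired. With the replicate block, 10 rows were higher and 1 lower on day 3 and 9 higher and 1 lower on day 6 against BEFs, and 1 was higher and 3 lower on day 6 against day 3. Over 126 alternative values of the ratios, the sign turned for PSMB10 to PSMB7 between the days, which was -0.05 and became 0.07 without CiADCs-6d sample 2. The low counts of NLRC5, CIITA and the class II genes in BEFs limit their fold changes more than those of the other rows. PSMB9 had a larger SE than TAP1 and ERAP2, whose FPKM in BEFs were similar, and the reason was not tested. With 3 samples a group no exact test can fall below p = 0.1.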

Other observations

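Class I-like and non-classical chains, a list of 14 genes that includes BOLA-NC1 and JSP.1, had 10 tested genes, of which 8 exceeded BEFs in CiADCs-3d, with a median log2 fold change of 1.44. On day 6, 7 were higher and 1, HFE, was lower (-0.71), with a median of 1.65. Over all tested genes, 30.9% were higher on day 3, and 35.6% were higher and 31.9% lower on day 6. The class II chains that show peptides on the cell surface were nearly absent from BEFs: BOLA-DRA had 272 counts on day 3 and 68 on day 6, pooled over 3 libraries, against 1 in BEFs, and BOLA-DRB3 had 466 and 190, against 1. The ratio of BOLA-DRB3 to BEFs, scaled to library size, was 509.6 on day 3, with a 95% interval from counting error alone of 91.0 to 20172.

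The cartilage matrix gene ACAN was lower than in BEFs by 3.06 on the log2 scale on day 3 and by 3.50 on day 6, while COL2A1, the main cartilage collagen, was higher (1.82 and 1.51). Of the 12 fibroblast genes, 3 were higher and 5 lower on day 3, and 1 was higher and 7 lower on day 6. The shares of all tested genes higher and lower were 30.9% and 29.1% on day 3 and 35.6% and 31.9% on day 6.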
